A study of Mus musculus with 11 samples.

Results

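Genes of the fast skeletal muscle fibre were followed across 11 mouse tumours: Acta1, Actn3, Mb, Ckm, Tnnt3, Tnni2, Mylpf, Myh4, Atp2a1 and Pvalb, 10 of the 17181 genes in the table. They were selected on measured values of these same libraries, because Acta1, Actn3 and Mb were near 0 in both vehicle tumours and present in treated ones. Differences from vehicle are therefore given as a description, with no test. The tumours grew from 4T1 cells, an established mouse mammary carcinoma line, placed subcutaneously in each flank. Dosing ran for 12 days and began at a volume of about 100 mm3. Vehicle tumours (n = 2) received the lactate, corn oil and DMSO carrier only, and their titles call them untreated. OPG-Fc tumours (n = 3) received 10 mg/kg of OPG-Fc, a decoy receptor for the cytokine RANKL, by injection into the peritoneum 3 times a week. Palbociclib tumours (n = 3) received 30 mg/kg per day of palbociclib, an oral inhibitor of the cell cycle kinases CDK4 and CDK6, and combination tumours (n = 3) received both drugs at these doses. All samples carry the genotype label WT and share the cell line, and host age is not given in the sources used here. The series' design text names NSG hosts, a strain without T, B or NK cells, while the series' title calls the model syngeneic. Which tumours share an animal is not given, so p-values reflect the spread among these tumours alone, which may in part be technical.

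A skeletal muscle fibre contracts when thick filaments of myosin pull on thin filaments of actin. Calcium released from the sarcoplasmic reticulum binds the troponin complex on the thin filament and opens the myosin sites, and a calcium pump then returns the calcium. Fast and slow fibres build the same machinery from different gene copies, and the fastest fibres add a calcium buffer and rely on creatine phosphate and glycogen, while oxidative fibres hold more myoglobin. Neither mammary epithelium nor 4T1 carcinoma cells form sarcomeres, whereas the skin and body wall of the flank hold striated muscle. These measurements are of bulk tissue, in which fewer cells of a type and less RNA per cell cannot be told apart.

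Values are FPKM, which corrects fragment counts for the length of the transcript and the size of the library, so levels of different genes can be compared. The table holds no counts, so the read depth is unknown. Library totals were 576699 to 864670 FPKM. One library, vehicle replicate 2, was unlike the rest: the epithelial surface protein Epcam was at 11.7 FPKM in it and at 336 to 604 FPKM elsewhere. A list of 12 lymphoid genes summed to an FPKM of 7024 in that library and to 19.7 to 897 in the others, the highest of these in OPG-Fc replicate 2. Tests among the 3 treated groups are given both from a fit of all 11 libraries and from a fit of the 9 treated ones.

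The promoters of 4 genes are shown because Acta1 and Mylpf rose and fell together across the 9 treated tumours (Pearson's r of log2(FPKM + 1) of 0.979), Ckm followed them less closely (0.867 with Acta1) and Myh4 least (0.559 with Acta1), and the 4 differ in the sequence just before their start. Of the 10 genes, 7 had an entry in the RefSeq promoter table of build GRCm38.p6, with 10 start sites among them, and each run below is the 250 bases before 1 start, 5′ to 3′ on the gene's strand. The runs lie at chr8:123894776-123895025 on the minus strand for Acta1, and on the plus strand at chr7:19410844-19411093 for Ckm, chr7:127211358-127211607 for Mylpf and chr11:67237562-67237811 for Myh4. Capitals mark matches, on either strand, to the E-box CANNTG bound by myogenic basic helix-loop-helix factors, the MEF2 box, the CArG box of serum response factor, the MCAT element CATTCC bound by TEAD factors, and the TATA-like TATANA.
Acta1 promoter: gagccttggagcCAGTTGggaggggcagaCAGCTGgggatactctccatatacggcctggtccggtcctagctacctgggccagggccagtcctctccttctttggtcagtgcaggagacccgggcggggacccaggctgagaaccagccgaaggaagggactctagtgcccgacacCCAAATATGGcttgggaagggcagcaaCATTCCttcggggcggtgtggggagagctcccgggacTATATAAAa
Ckm promoter: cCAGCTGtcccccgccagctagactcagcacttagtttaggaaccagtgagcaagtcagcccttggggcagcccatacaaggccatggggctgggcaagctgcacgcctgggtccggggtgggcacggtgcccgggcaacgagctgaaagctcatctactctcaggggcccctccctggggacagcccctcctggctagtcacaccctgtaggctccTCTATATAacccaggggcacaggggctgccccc
Mylpf promoter: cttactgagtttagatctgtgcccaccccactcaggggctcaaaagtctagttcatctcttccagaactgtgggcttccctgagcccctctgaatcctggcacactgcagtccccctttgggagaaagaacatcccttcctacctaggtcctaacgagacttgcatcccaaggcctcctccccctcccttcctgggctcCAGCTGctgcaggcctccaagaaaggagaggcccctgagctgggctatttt
Myh4 promoter: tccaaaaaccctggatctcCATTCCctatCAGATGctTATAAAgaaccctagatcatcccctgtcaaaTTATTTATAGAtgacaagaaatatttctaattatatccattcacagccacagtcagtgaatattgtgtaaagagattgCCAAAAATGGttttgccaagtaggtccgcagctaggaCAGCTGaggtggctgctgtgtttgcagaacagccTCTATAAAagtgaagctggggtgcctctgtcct
Acta1 held E-boxes starting 238 and 221 bases upstream, a CArG box at 73, an MCAT element at 46 and TATANA matches at 9 and 7. Ckm held an E-box at 249 and overlapping TATANA matches at 33 and 31, and Mylpf held only an E-box at 51. Myh4 held E-boxes at 221 and 67, an MCAT element at 231, a MEF2 box at 182, a CArG box at 104 and TATANA matches at 213, 179, 177, 33 and 31, of which those at 179 and 177 overlap the MEF2 box. An E-box was found in 9 of the 10 windows of these genes and in 66.2% of all 32851 windows of the same length. The 10 windows are not separate promoters, as Mb and Pvalb had more than 1 each. The Mb windows at chr15:77022728-77022977 and chr15:77022788-77023037 overlap and share E-boxes. MEF2 and CArG boxes were each found in 2 of the 10 windows, against 1.69% and 1.47% of all windows. The MCAT element was found in 2 of 10 against 12.6%, and TATANA in 3 of 10 against 22.6%. A match is a run of letters and not a measured site of binding.

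The thin filament genes were the most abundant. Acta1, the skeletal muscle actin, had an FPKM of 0.06 and 0.1 in vehicle replicates 1 and 2, of 9.43, 98.2 and 151 in OPG-Fc replicates 1 to 3, of 70.1, 108 and 23.7 in palbociclib replicates 1 to 3, and of 149, 132.3 and 22.1 in combination replicates 1 to 3. All 9 treated tumours were above both vehicle tumours, and within each treated group 1 tumour lay far below the other 2. Tnnt3, the fast troponin T that ties the complex to tropomyosin, had an FPKM of 14.6 and 0.9 with vehicle, of 16.6, 55.6 and 60.2 with OPG-Fc, of 32.0, 59.5 and 25.7 with palbociclib, and of 83.5, 51.6 and 23.3 with the combination. Tnni2, the fast inhibitory troponin, had an FPKM of 19.2 and 1.89 with vehicle, of 28.5, 64.0 and 61.8 with OPG-Fc, of 58.2, 51.3 and 33.0 with palbociclib, and of 70.9, 51.3 and 37.5 with the combination. Both troponins, unlike Acta1, were plainly present in vehicle replicate 1, and the treated tumour nearest to it was OPG-Fc replicate 1 for each. Acta1 was the highest of the 10 genes in 6 treated libraries and Tnni2 in the other 3.

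The thick filament was measured through a light and a heavy chain. Mylpf, the fast regulatory light chain, had an FPKM of 0.55 and 4.66 with vehicle, of 3.79, 35.0 and 43.3 with OPG-Fc, of 21.8, 35.7 and 8.51 with palbociclib, and of 58.4, 32.5 and 4.92 with the combination. Vehicle replicate 2 was above OPG-Fc replicate 1 and close to combination replicate 3, so 8 of 9 treated tumours were above both vehicle tumours. Myh4, the heavy chain of the fastest fibres (type 2B), had an FPKM of 0.01 in vehicle replicate 1 and was listed at 0 in vehicle replicate 2, with 0.15, 21.6 and 0.82 for OPG-Fc, 0.99, 1.65 and 0.03 for palbociclib, and 7.4, 0.99 and 0.32 for the combination. OPG-Fc replicate 2 and combination replicate 1 thus stood above all other tumours for Myh4. Actn3, the alpha-actinin of fast-fibre Z-discs, where thin filaments are anchored, had an FPKM of 0.11 and 0.07 with vehicle, of 0.89, 11.3 and 6.57 with OPG-Fc, of 4.69, 7.11 and 2.67 with palbociclib, and of 5.97, 9.91 and 0.81 with the combination. All 9 treated values were above both vehicle values, with OPG-Fc replicate 1 and combination replicate 3 lowest.

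Calcium handling was measured through a pump and a buffer. Atp2a1, the fast-fibre calcium pump of the sarcoplasmic reticulum, had an FPKM of 0.03 and 0.62 with vehicle, of 1.48, 23.0 and 15.7 with OPG-Fc, of 5.85, 8.54 and 1.23 with palbociclib, and of 11.4, 4.78 and 1.22 with the combination. The treated tumours were all above vehicle, and the 3 lowest came from 3 different groups. Pvalb, the parvalbumin that buffers calcium in the fastest fibres, was listed at 0 in vehicle replicate 1 and had an FPKM of 1.35 in vehicle replicate 2, with 0.11, 21.9 and 3.97 for OPG-Fc, 0.73, 1.96 and 0.21 for palbociclib, and 8.14, 1.47 and 0.73 for the combination. Only 5 of 9 treated tumours were above both vehicle tumours for Pvalb, and OPG-Fc replicate 2 alone exceeded 10.

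Energy and oxygen supply were represented by Ckm and Mb. Ckm, the muscle creatine kinase that regenerates ATP from creatine phosphate, had an FPKM of 0.06 and 0.11 with vehicle, of 1.04, 60.1 and 24.0 with OPG-Fc, of 8.39, 16.0 and 1.64 with palbociclib, and of 33.3, 11.8 and 5.45 with the combination. Every treated value was above both vehicle values, and OPG-Fc held both the highest and the lowest of them. Mb, the oxygen-binding protein myoglobin, had an FPKM of 2.47 and 0.18 with vehicle, of 2.21, 2.34 and 10.8 with OPG-Fc, of 14.1, 20.6 and 10.5 with palbociclib, and of 11.1, 11.5 and 6.44 with the combination. OPG-Fc replicates 1 and 2 lay between the vehicle values for Mb, so 7 of 9 treated tumours were above both. Mb was thus not near 0 in vehicle replicate 1, which goes against the observation on which the genes were picked.

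**Figure D1:**
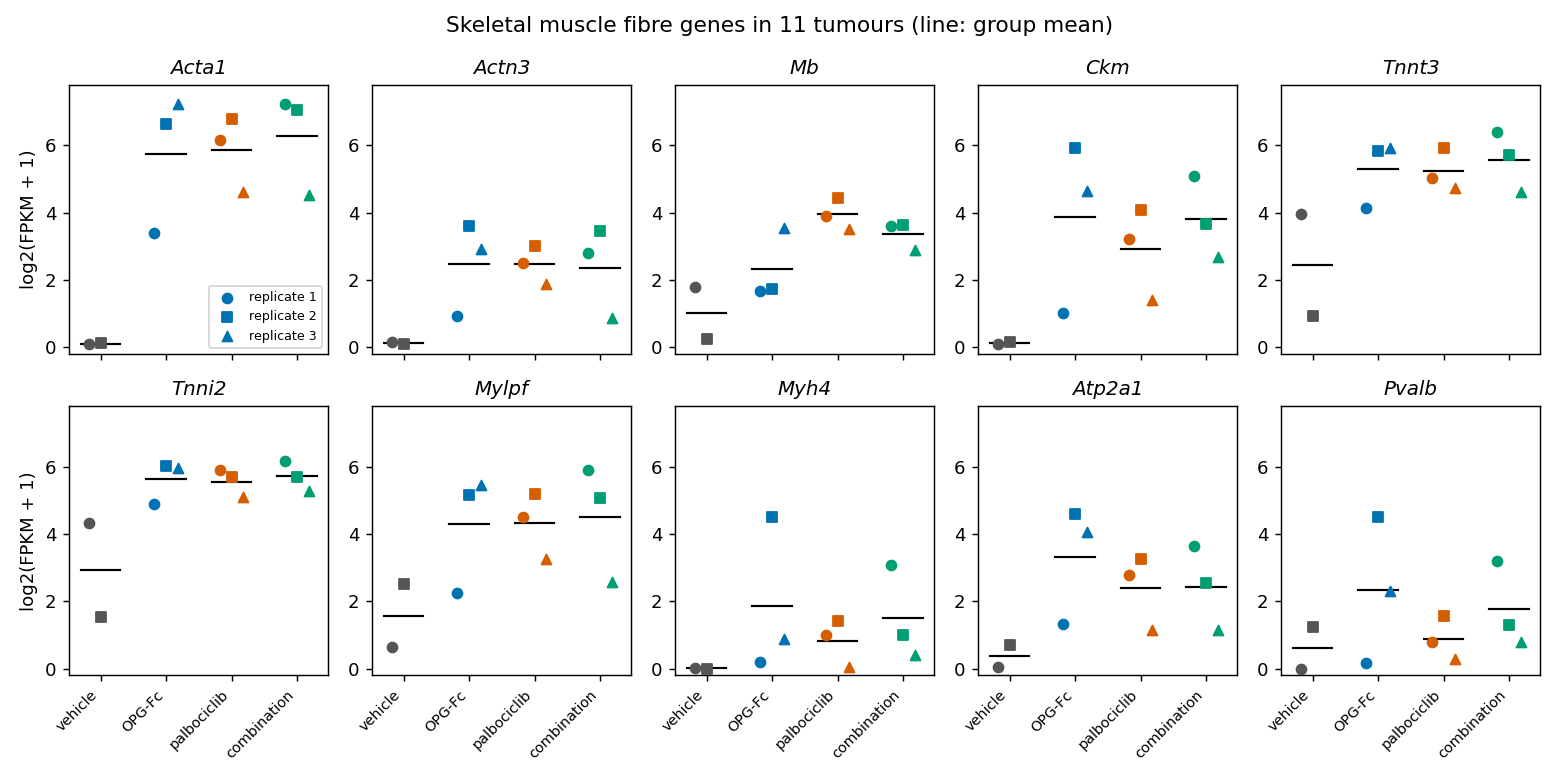
FPKM of the 10 muscle fibre genes on a log2(FPKM + 1) axis, 1 point per tumour, coloured by group and shaped by replicate, with the group mean as a line. The 9 treated tumours lie above both vehicle tumours for 7 genes, while Mb, Mylpf and Pvalb overlap with vehicle.

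In all, 7 of the 10 genes were higher in each of the 9 treated tumours than in both vehicle tumours, as were 5.44% of all 13074 genes tested. The genes were selected on this contrast, so the count is no evidence of a drug effect. On the log2(FPKM + 1) scale, which understates the change of low genes, the median difference over the 10 genes was 2.71 for OPG-Fc minus vehicle (range 1.31 to 5.64), 2.69 for palbociclib minus vehicle (0.26 to 5.74) and 2.57 for the combination minus vehicle (1.15 to 6.16). The medians over all genes tested were 0.04, -0.04 and -0.01. These 3 differences and the count above share the same 2 vehicle tumours, which were unlike each other. The 14 epithelial genes summed to an FPKM of 60.2 in vehicle replicate 2 and to 3250 in vehicle replicate 1. The treated tumours had 2875 to 4212, so only vehicle replicate 1 was within their epithelial range. Summed over the 10 genes, FPKM came to 37.1 in vehicle replicate 1 and 9.88 in vehicle replicate 2, while the ranges were 64.2 to 393 for OPG-Fc, 107 to 311 for palbociclib and 103 to 439 for combination tumours. In each vehicle tumour 3 of the 10 genes reached an FPKM of 1, namely Tnni2, Tnnt3 and Mb in replicate 1 and Mylpf, Tnni2 and Pvalb in replicate 2, against 7 to 10 genes in a treated tumour. Some of the 10 genes were thus detectable in each vehicle tumour, while Acta1, Actn3, Ckm and Myh4 were at most 0.11 in both. Whether muscle fibres were the source of the detected transcripts was not tested.

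The spread among treated tumours differed by gene. The highest treated value was 2.49 times the lowest for Tnni2, 5.04 times for Tnnt3 and 9.3 times for Mb. It was 13.9 times for Actn3, 15.4 times for Mylpf, 16.0 times for Acta1, 18.9 times for Atp2a1 and 57.8 times for Ckm. For Pvalb and Myh4 it was 199 and 722 times, with lowest values of 0.21 or less, which 2 decimals record coarsely. By the median over the 9 treated tumours, Acta1 came first at an FPKM of 98.2, followed by Tnnt3 at 51.6 and Tnni2 at 51.3. Mylpf followed at 32.5, Ckm at 11.8, Mb at 10.8, Actn3 at 5.97, Atp2a1 at 5.85, Pvalb at 1.47 and Myh4 at 0.99. The neighbouring pairs Tnnt3 and Tnni2, Ckm and Mb, and Actn3 and Atp2a1 were closer than the spread of either gene between tumours.

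No difference among the treated groups passed the test for any of the 10 genes. The first comparison asked what OPG-Fc added to palbociclib. For the combination minus palbociclib, limma called 0 of the 10 genes at an adjusted p under 0.05, beside 0% of all 13074 genes in the fit of 11 libraries and 0% of 12854 genes in the fit of the 9 treated libraries. At an unadjusted p under 0.05 there were 0 of the 10 genes in either fit, and 883 and 2309 genes of the table. Group means of Acta1 were 101 ± 69.1 with the combination and 67.4 ± 42.4 with palbociclib (SD, n = 3 each). The log2 difference was 0.42 ± 1.05 (SE) for Acta1 (limma adjusted p = 0.945), 0.92 ± 1.18 for Ckm (adjusted p = 0.875) and -0.58 ± 0.56 for Mb (adjusted p = 0.825). The median over the 10 genes was 0.26, with 8 above 0 and 2 below, against a median of 0.02 and 52.7% above 0 over all genes. Most of the 10 moved together across tumours, so they are not independent counts. The groups overlapped for each of these 3 genes. With 1 library left out, Ckm ran from 0.16 (without palbociclib replicate 3) to 1.51 (without palbociclib replicate 2), Mb from -0.79 (without palbociclib replicate 3) to -0.34 (without combination replicate 3), and Acta1 from -0.19 (without palbociclib replicate 3) to 1.29 (without combination replicate 3). Weighting libraries by their variance gave 2.02 for Ckm, 1.58 for Acta1 and -0.21 for Mb.

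The second comparison asked what palbociclib added to OPG-Fc. For the combination minus OPG-Fc, 0 of the 10 genes were called, against 0.0994% of all genes in the fit of 11 libraries and 5.11% in the fit of the treated libraries. The counts at an unadjusted limma p under 0.05 were 0 and 1 of the 10, beside 2020 of 13074 and 4056 of 12854 genes of the table. Mb averaged 9.67 ± 2.80 with the combination and 5.11 ± 4.92 with OPG-Fc (SD, n = 3 each), a log2 difference of 1.05 ± 0.56 (SE, limma adjusted p = 0.38). The difference was 0.52 ± 1.05 for Acta1 (adjusted p = 0.838) and -0.88 ± 0.92 for Atp2a1 (adjusted p = 0.67). The median over the 10 genes was 0.02, with 5 above 0 and 5 below, against -0.07 and 42.5% above 0 over all genes. With 1 library left out, Atp2a1 ran from -1.89 (without OPG-Fc replicate 1) to -0.24 (without combination replicate 3), Mb from 0.73 (without OPG-Fc replicate 1) to 1.67 (without OPG-Fc replicate 3), and Acta1 from -0.67 (without OPG-Fc replicate 1) to 1.39 (without combination replicate 3). Library weights gave 0.31 for Mb and 0.10 for Acta1.

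The third comparison set the single drugs side by side. For OPG-Fc minus palbociclib, 0 of the 10 genes were called, against 0.91% and 10.5% of all genes in the respective fits. At an unadjusted limma p under 0.05 there were 1608 of 13074 and 3092 of 12854 genes of the table, and 1 of the 10 in each fit. That gene was Mb, with a mean of 5.11 ± 4.92 with OPG-Fc and 15.0 ± 5.10 with palbociclib (SD, n = 3 each). OPG-Fc replicate 3, at 10.8, was above palbociclib replicate 3, at 10.5, so the groups overlapped by this pair. The log2 difference of Mb was -1.63 ± 0.56 (SE, limma adjusted p = 0.239) in the fit of 11 libraries and had an adjusted p of 0.0562 in the fit of 9. Pvalb leaned the other way at 1.45 ± 1.01 (limma adjusted p = 0.707), and Acta1 stood at -0.10 ± 1.05 (adjusted p = 0.985). The median over the 10 genes was 0.06 (7 above 0 and 3 below), against 0.04 and 56.1% above 0 over all genes. Pvalb was 0.35 without OPG-Fc replicate 2 and was 2.54 without OPG-Fc replicate 1, and Acta1 was -0.84 without OPG-Fc replicate 3 and 1.09 without OPG-Fc replicate 1. Library weights gave -0.52 for Mb and 1.48 for Acta1. The standard errors of about 1 for Acta1 and Pvalb mean that differences of this size between drugs could not be resolved.

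**Figure D2:**
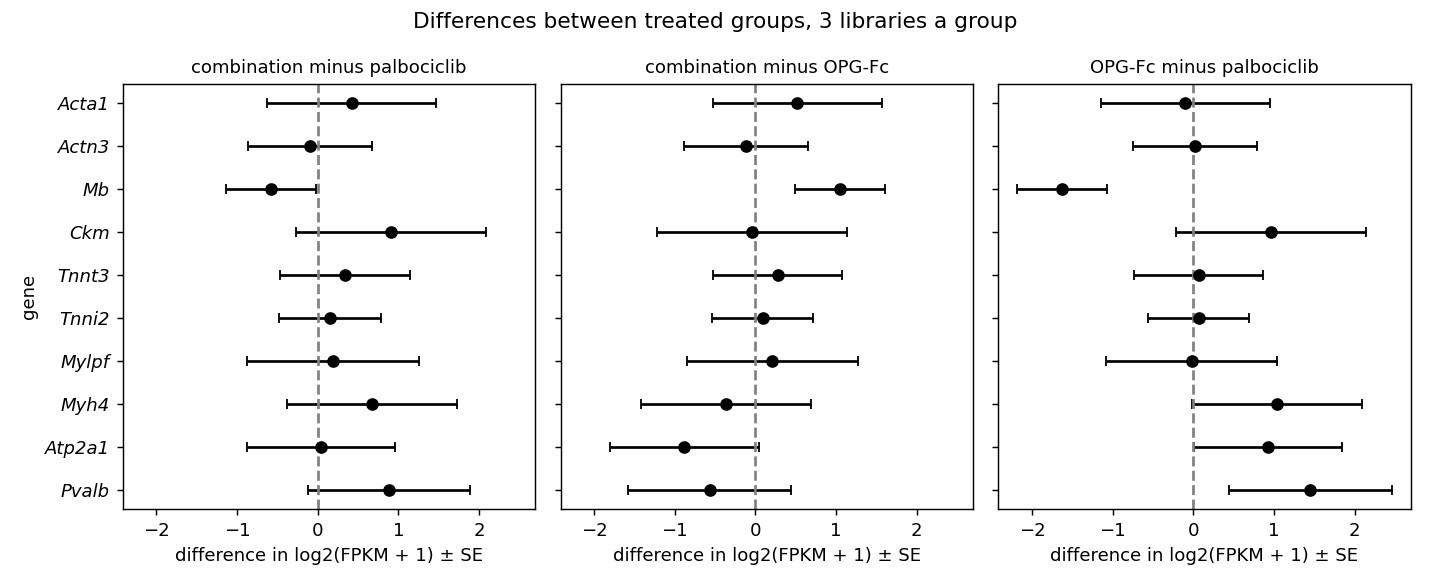
Log2 differences between treated groups for the 10 genes, with SE as error bars, from the limma fit of all 11 libraries. The bars of Acta1 and Pvalb reach about 1 to each side, and Mb in OPG-Fc minus palbociclib lies farthest from 0 at -1.63.

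The heavy chains showed which kind of fast fibre transcript each tumour held. Myh4 was set beside Myh1 (type 2X), Myh2 (type 2A), Myh7 (slow) and the embryonic and neonatal chains Myh3 and Myh8. These paralogs have near-identical stretches, so the split between them is uncertain. Their summed FPKM was 0.23 and 0.14 in the vehicle tumours, too low for shares to be read, and 0.67 to 22.1 in the treated ones. Myh4 made up 97.9% of the sum in OPG-Fc replicate 2 and 69.8% in combination replicate 1. Myh1 led in OPG-Fc replicate 3 with 88.1%, in combination replicate 2 with 78.1% and in OPG-Fc replicate 1 with 76.8%. Palbociclib replicates 1 to 3 had Myh1 shares of 58.1%, 57.7% and 69.9%, with Myh4 at 30.7%, 28.4% and 1.96%. Combination replicate 3 had 47.8% of each, from a sum of 0.67. The Myh2 share peaked at 24.2% in palbociclib replicate 3. The fast chain that led thus differed between tumours of 1 group in OPG-Fc and in the combination. The level of Myh7 was at most 0.07, that of Myh3 at most 0.06 and that of Myh8 at most 0.08 in every library. OPG-Fc replicates 2 and 3, with the highest and the lowest Myh4 share of their group, carry the same first number in their column names, as do combination replicates 1 and 2, and the meaning of that number is not given.

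**Figure D3:**
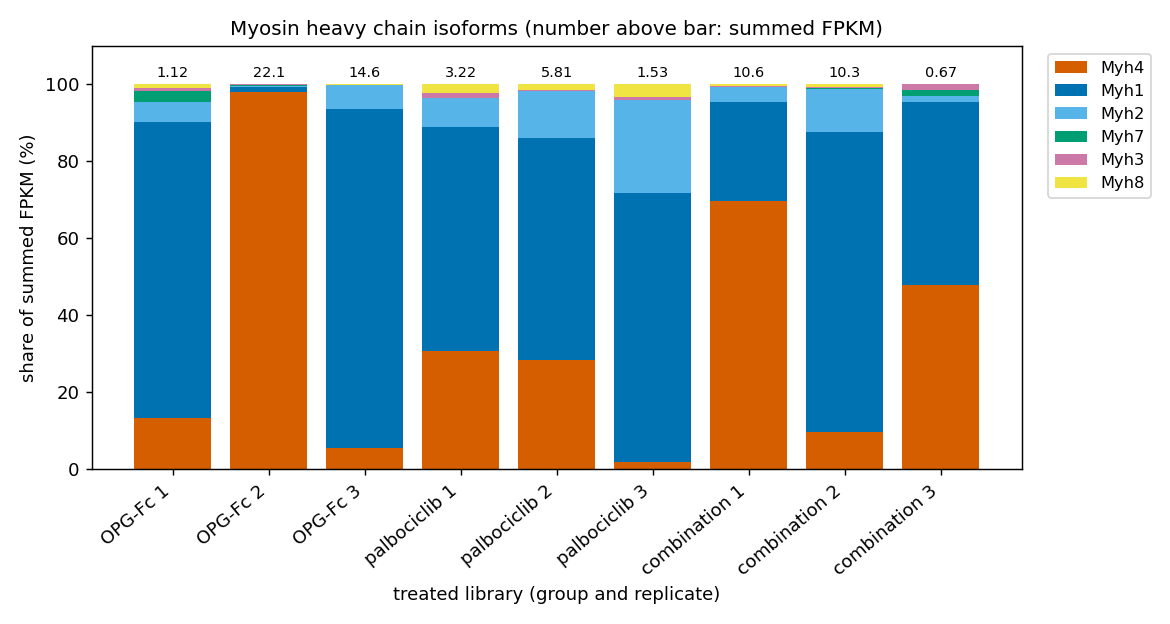
Share of each heavy chain gene in the summed FPKM of 6 myosin heavy chain genes, as stacked bars in percent, 1 bar per treated tumour, with the summed FPKM above it. Myh4 fills 97.9% of the bar in OPG-Fc replicate 2 and 5.62% in OPG-Fc replicate 3, where Myh1 fills 88.1%.

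Fast copies outweighed slow ones in every treated tumour for troponins T and I, but not for troponin C. In the treated tumours Tnnt3 made up 94.4% to 99.5% of the summed FPKM of Tnnt3 and its slow counterpart Tnnt1. For Tnni2 over Tnni2 and Tnni1 the share was 97.6% to 99.2%. The calcium-binding troponin Tnnc2, set against the slow and cardiac Tnnc1, ranged from 38.5% in OPG-Fc replicate 1 and 42.2% in combination replicate 3 to 95.3% in OPG-Fc replicate 2. Atp2a1 made up only 1.66% to 25.2% of its sum with Atp2a2, the pump that most cell types use. In vehicle replicate 1 the shares of Tnnt3 and Tnni2 were 98.7% and 97.9%, within the treated range, although Acta1 had an FPKM of 0.06 there. In vehicle replicate 2 they were 61.2% and 75.0%, below that range. The shares of Tnnc2 were 0% and 27.0% in vehicle replicates 1 and 2, and those of Atp2a1 were 0.04% and 0.82%, all below the treated ranges.

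Across the 9 treated tumours most of the 10 genes moved together, and Mb stood aside. As a description over tumours that share groups and scaling, Pearson's r of log2(FPKM + 1) was 0.979 for Acta1 with Mylpf, 0.971 for Tnnt3 with Mylpf, 0.946 for Myh4 with Pvalb and 0.938 for Ckm with Atp2a1. The median r of Mb with the other 9 genes was 0.315 and its highest was 0.516, while the medians of the other 9 ran from 0.662 for Myh4 to 0.896 for Tnni2. Mb had an r of -0.256 with Myh4 and of -0.194 with Pvalb. Among the other muscle genes, those nearest to Pvalb (singled out after their values were seen) were Pygm, the muscle glycogen phosphorylase, with an r of 0.964, the Z-disc protein Myoz1 with 0.952, and Pgam2, the muscle phosphoglycerate mutase, with 0.942. Those nearest to Mb, also singled out afterwards, were the myogenic factor Myog with 0.88, the thin filament protein Lmod2 with 0.834 and the Z-disc protein Csrp3 with 0.823. Myog and Csrp3 had an r of -0.15 and -0.0677 with Pvalb.

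OPG-Fc replicate 2 showed this split most plainly. It had the highest Myh4, Pvalb, Ckm and Atp2a1 of any tumour, yet Csrp3, Myog and Sln were listed at 0 there and Actn2, the alpha-actinin of all fibre types, had an FPKM of 0.17. In OPG-Fc replicate 3, Csrp3 had an FPKM of 8.88, Sln, an inhibitory peptide of the calcium pump, 7.17, Actn2 3.61 and Myog 1.83. Csrp3 was highest in combination replicate 2 at 11.4, where Mb had an FPKM of 11.5 and Pvalb 1.47. Sln, Csrp3, Actn2 and Myog were chosen here after their values were seen.

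Other muscle genes were taken from 6 lists of 116 genes, of which 114 were in the table and 70 passed the filter on low values. In the fit of 11 libraries limma called 0 of the 70 in each of the 3 comparisons among treated groups. In the fit of the 9 treated libraries it called 0 for the combination minus palbociclib, 1 for the combination minus OPG-Fc and 2 for OPG-Fc minus palbociclib, against the background shares above. Mef2c, a transcription factor of muscle that endothelial and B cells also express, was lower with the combination than with OPG-Fc in that fit (log2 difference -0.78 ± 0.18, limma adjusted p = 0.0428). It was also higher with OPG-Fc than with palbociclib (1.00 ± 0.18, adjusted p = 0.00668), and its highest FPKM, 54.4, was in vehicle replicate 2. Slc2a4, the insulin-responsive glucose transporter of muscle and fat, was higher with OPG-Fc than with palbociclib (1.52 ± 0.35, limma adjusted p = 0.0219). The medians of the 70 genes were 0.04 for the combination minus palbociclib, 0.02 for the combination minus OPG-Fc and 0.00 for OPG-Fc minus palbociclib.

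A gene low with vehicle passed the filter only where treated tumours were high, so counts above vehicle are a description and are given by list over all its genes in the table. Over the whole table, 13074 of 17181 genes passed the filter, and 4.51% of the 17181 were above both vehicle tumours in all 9 treated ones. Of 12 genes listed as other fast-fibre isoforms 11 passed the filter, and 5 of the 12 were above both vehicle tumours in all treated ones. This list is not confined to fast fibres. It holds Actn2, the alpha-actinin of all fibre types, which is among the 5, and Tpm1, which had 69.5 to 350 over all tumours. Tnnc2 had an FPKM of 0 and 0.1 with vehicle and of 0.9 to 45.4 in treated tumours, and the light chain Myl1 had 0 and 1.03 against 2.74 to 33.1. Of 33 sarcomere scaffold and Z-disc genes 21 passed and 16 of the 33 were above vehicle throughout, and of 22 excitation-contraction coupling genes 10 passed and 4 of the 22 were above. Of 20 genes of muscle energy metabolism 14 passed and 5 of the 20 were above. Of 11 slow-fibre isoforms 7 passed and 1 of the 11 was above vehicle throughout. Tnnt1 had at most 3.04 in any tumour and Tnnc1 at most 6.29. Atp2a2, which most cell types use, had 35.0 to 81.4 over all tumours, and Tpm3 had 204 to 283. In the satellite cell, myoblast and embryonic fibre list, 7 of the 16 genes that the table holds passed and 1 of the 16 was above vehicle throughout. Myod1, a myogenic regulator, reached at most 0.38 in a treated tumour, and Chrng, the embryonic subunit of the acetylcholine receptor, at most 0.48. Others of this list were higher. Myog was listed at 0 with vehicle and reached an FPKM of 1 in 6 treated tumours, with a highest value of 2.37. Myl4 had 1.03 and 25.62 with vehicle and 2.22 to 15.65 in treated tumours. The satellite cell markers Pax7 and Myf5 were not analysed here.

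**Figure D4:**
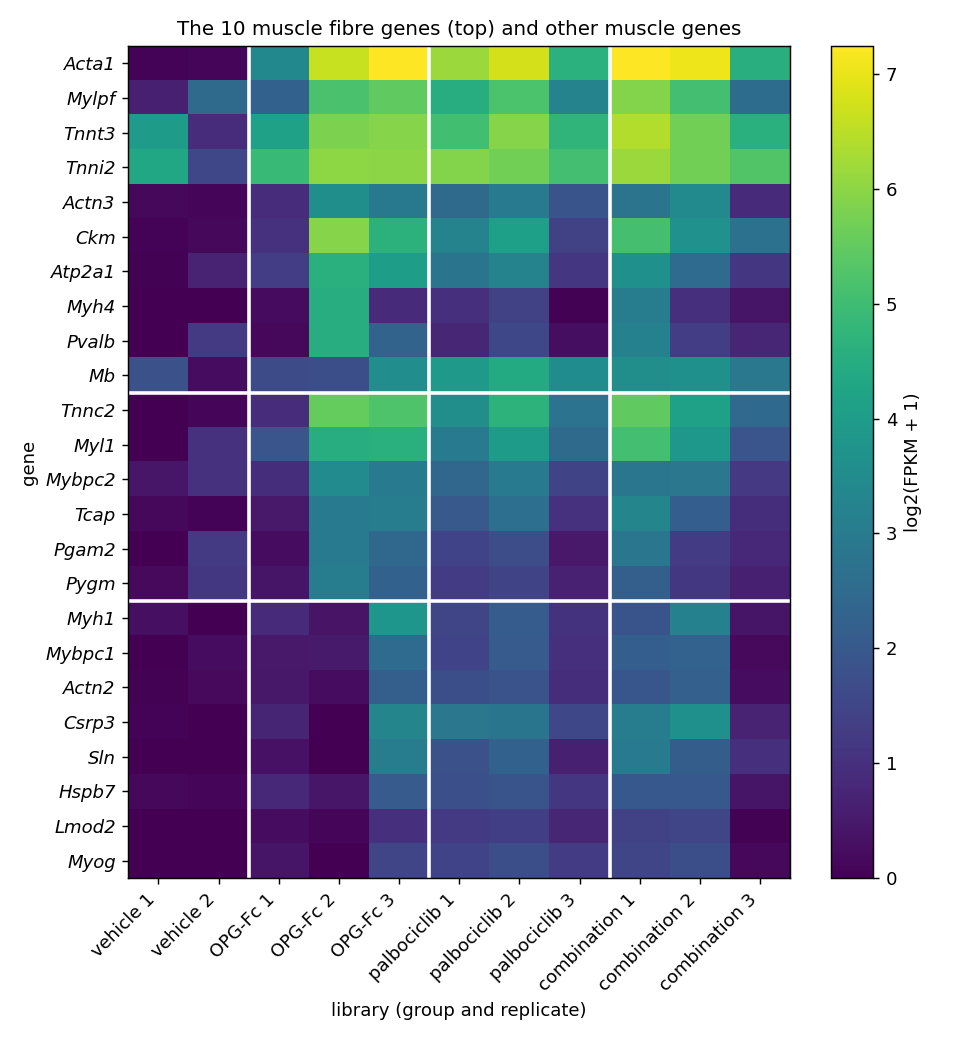
Level of the 10 genes and of further muscle genes in each of the 11 tumours, as colour on a log2(FPKM + 1) scale. Bright colours are high levels: rows from Tnnc2 to Pygm are brighter in OPG-Fc replicate 2 than in the vehicle tumours, while Csrp3, Sln and Myog, listed at 0 in that tumour, are at the dark end.

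The genes most like the group were found by the correlation of each gene with the mean log2(FPKM + 1) of the 10, over all 11 libraries and over the 9 treated ones. Over 11 libraries the 10 nearest were Tnnc2 (r = 0.989), the Z-disc cap Tcap (0.978), Myl1 (0.965), the ADP-ribosyltransferase Art1 (0.952), the fast myosin-binding protein Mybpc2 (0.95), the BMP co-receptor Hjv (0.933), Rtn2 (0.915), Ankrd23 (0.913), the muscle and nerve elongation factor Eef1a2 (0.906) and Apobec2 (0.903). Over the 9 treated libraries Tcap led with 0.984, followed by Tnnc2, Mybpc2, Myl1, Pgam2, Art1, Pygm, Cox6a2, Apobec2 and Ppp1r8. The sets shared 6 of their 10 genes. Cox6a2, a muscle subunit of cytochrome oxidase, had an r of 0.915 over the treated libraries and of 0.259 over all 11. Ppp1r8 had an r of 0.8995 and of 0.093, and its FPKM ran only from 29.5 to 35.5 in treated tumours. These are the highest of many correlations over few libraries, with no test, so some may be chance matches.

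Markers of other tissues also varied between tumours, and their part in the muscle values was not tested. The heart list summed to an FPKM of 4.18 to 157 with vehicle and of 171 to 341 in treated tumours; in the treated tumours this was nearly all Tnnt2, the cardiac troponin T, which had 145.5 in vehicle replicate 1 and 0.05 in vehicle replicate 2. Nppa, the atrial natriuretic peptide, reached at most 0.07 in any library, and Myh6, Myl7 and Ryr2 were not analysed here. The 13 adipocyte genes summed to 110 and 1569 with vehicle, 957 to 3089 with OPG-Fc, 133 to 823 with the combination and 76.2 to 126 with palbociclib. The 14 genes of epidermis and hair follicle in the table summed to 1146 and 988 in palbociclib replicates 1 and 3 and to 4.23 to 252 in the other tumours. The 13 smooth muscle and pericyte genes summed to 339 to 481 with OPG-Fc, 166 to 237 with palbociclib, 256 to 391 with the combination and 151 to 255 with vehicle. The 13 fibroblast and collagen genes summed to 2830 to 4233 with OPG-Fc, 1190 to 1617 with palbociclib, 1244 to 1549 with the combination and 995 to 2321 with vehicle. The nerve list summed to 88.6 to 208, endothelial genes to 108 to 221, and the 14 epithelial genes to 2875 to 4212 outside vehicle replicate 2, where they came to 60.2. The tumour with the lowest summed level of the 10 muscle genes among the treated, OPG-Fc replicate 1 at 64.2, had an adipocyte sum of 1776, and OPG-Fc replicate 2, with a muscle sum of 393, had the highest adipocyte sum at 3089.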

How the data were processed

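RNA of 11 tumours was measured by poly(A) sequencing. The submitters' processing notes list HISAT, Bowtie2 and RSEM without versions or roles, and GRCm39 and mm39 as builds. The authors deposited FPKM values, rounded to 2 decimals, for 17181 gene symbols in 1 table, and the read depth is unknown. Analysis used log2(FPKM + 1) of the 13074 genes, all 10 muscle fibre genes among them, that reached an FPKM of 1 in 2 or more libraries. The 4 groups were modelled over all libraries in limma 3.58.1 (R 4.3.3, trended variance), with Benjamini-Hochberg adjustment over all genes tested and calls at an adjusted p under 0.05. A fit of the 9 treated libraries (12854 genes) is given beside it. An exact permutation test of 3 against 3 cannot go below p = 0.1. The fit was tested on simulated data.

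The 10 genes and the gene lists were chosen with earlier results of these data known. Named genes are the 10, up to 4 of each list with the highest mean FPKM, muscle genes called in a test, and the 10 genes most correlated with the mean of the 10. Others are said to be chosen after their values were seen, except markers given to check a tissue or fibre type. The alternatives were the pseudocount, filter, scaling, variance prior, library weights, libraries fitted, a replicate block, averaging by column number, and leaving out libraries. Promoters are from RefSeq on GRCm38.p6, an older build than the files', and were matched by symbol. Plots were made in Python 3.11.15 with matplotlib 3.10.9.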

Additional observations from a re-analysis of the deposited data

How the results depend on the processing

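Under 23 settings besides the first, each of the 3 comparisons among treated groups called 0 of the 10 genes. The lowest limma adjusted p among the 10 was 0.0519, for Atp2a1 in OPG-Fc minus palbociclib with library weights, just short of the threshold. Counts over all genes and the sizes of differences depended on the setting. For the combination minus palbociclib (0 genes called), library weights gave 671 and leaving out a library gave 0 to 143, the highest without palbociclib replicate 2. For the combination minus OPG-Fc (13 called), there were 0 with a pseudocount of 0.1, no filter, quantile or median-of-ratios scaling, the replicate block, or libraries averaged by column number. There were 3490 with library weights, 657 with the 9 treated libraries, 220 with the 2 groups alone, and 0 to 664 with a library left out, namely 621 and 664 without vehicle replicates 1 and 2 and 0 without each treated library. For OPG-Fc minus palbociclib (119 called), there were 62 with a filter of FPKM 5, 50 with quantile and 60 with median-of-ratios scaling, 2652 with library weights, 1345 with the treated libraries, 1443 with the 2 groups alone, 14 with the replicate block, 0 when averaged by column number, and 0 to 1363 with a library left out (0 without OPG-Fc replicate 1 or 2, 1363 without vehicle replicate 1). Without both vehicle replicate 2 and OPG-Fc replicate 2, a choice made after seeing the data, 91 and 924 genes were called in these 2 comparisons, and the median of the 10 genes for OPG-Fc minus vehicle was 1.5, against 2.31 to 3.29 with 1 library left out. With a pseudocount of 0.1 that median for the combination minus vehicle was 3.69. Acta1, at -0.10 for OPG-Fc minus palbociclib, turned to 1.48 with library weights and ranged from -0.84 to 1.09 with a library left out. For the combination minus palbociclib Acta1 turned to -0.013 when averaged by column number and ranged from -0.19 to 1.29, and for the combination minus OPG-Fc from -0.67 to 1.39. The difference of Mb for OPG-Fc minus palbociclib stayed below 0 throughout, between -2.24 and -0.52. Same-numbered replicates share only a number: over 15 such pairs r ran from -0.406 to 0.528, and 3 of 11 libraries correlated best with their own number. The depth is unknown, so values below an FPKM of about 1 have unknown precision.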

Other observations

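Cox8b, a cytochrome oxidase subunit of muscle and brown fat that was singled out after its values were seen, did not follow the fast-fibre genes. Its FPKM was 0.6 and 19.4 with vehicle, 10.1, 35.2 and 14.1 with OPG-Fc, 2.15, 5.27 and 2.55 with palbociclib, and 8.66, 1.76 and 26.3 with the combination. Adipoq, the fat cell hormone adiponectin, had an FPKM of 3.45 and 75.2 with vehicle, 75.0, 113 and 34.1 with OPG-Fc, 4.21, 2.72 and 2.21 with palbociclib, and 17.0, 3.28 and 23.1 with the combination. Both were highest in vehicle replicate 2, the 3 OPG-Fc tumours and combination replicate 3, with combination replicate 1 next at 8.66 and 17.0. Ucp1, the uncoupling protein that defines brown fat, reached at most 0.17. Which tissue the Cox8b transcripts came from was not tested.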
